A study of Mus musculus with 16 samples.

Results

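Non-collagen genes of the extracellular matrix were described in mice lacking NM1 and in wild-type mice: glycoproteins, proteoglycans and the enzymes that cross-link, cut or protect matrix. The set was a list of 45 genes named for their function and chosen with earlier results of these data known. Each gene was read through the probe set with the highest mean over the 16 arrays. Of the 45 genes, 40 had a probe set that names them alone, among 17097 genes named in this way in the whole table. They comprised all 8 listed small leucine-rich proteoglycans, 11 of 13 elastic fibre and microfibril genes, 8 of 9 adhesive and matricellular genes, all 3 listed lysyl oxidases, all 5 listed proteases and protease inhibitors, and 5 of 7 basement membrane genes. Fbn1, Efemp2, Thbs1, Lama4 and Nid2 were not analysed here.

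The extracellular matrix is secreted mostly by fibroblasts and related mesenchymal cells. Fibronectin fibrils and collagen fibres form its scaffold, small leucine-rich proteoglycans bind collagen and set the width of its fibrils, and elastin laid on fibrillin microfibrils gives recoil to lungs, arteries and heart valves. Lysyl oxidases cross-link collagen and elastin, matrix metalloproteinases cut matrix proteins, TIMPs inhibit those proteases, and laminins, nidogens and perlecan build the basement membrane beneath epithelium, endothelium and muscle cells.

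NM1, nuclear myosin 1, is an isoform of the motor protein encoded by Myo1c that acts in the nucleus, where it is known as a partner of RNA polymerases. The groups were KO lungs and KO heart from mice 1602, 1603 and 1586, KO skin fibroblasts from mice 1584 and 1550, WT lungs and WT heart from mice 1592, 1624 and 1593, and WT skin fibroblasts from mice 1571 and 1623. Lungs and heart were chosen by the submitters for their high NM1 expression, and each sample was an RNA extract hybridised to 1 Affymetrix array. The sample titles do not say which parts of an organ were taken. The sources used here do not give the age, sex and strain of the mice, the part of Myo1c that was removed or the passage of the fibroblasts.

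Values are the deposited signals, whose scale is not stated and was taken as log2 from their range. A difference of 1 is then a doubling. A value belongs to its own probe set and is not set against that of another gene. A probe set was tested in a tissue when its mean over that tissue's arrays was above 3.79, the median of the whole table. A gene was called when its adjusted p, from limma with Benjamini-Hochberg adjustment over every probe set tested, was under 0.05. Differences between genotypes are KO minus WT, and in heart and lungs the values are given in the mouse order above. Each p-value sets a difference against a spread within groups that, unless stated, was shared by all 6 groups. In organ extracts fewer cells of a type and less RNA per cell cannot be told apart.

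The median of an array lay between 3.65 and 3.93. The tissue labels matched their markers: the surfactant gene Sftpc was at 13.9 to 14.1 in lungs, the ventricular myosin light chain Myl2 at 13.8 to 14.0 in heart, and the collagen gene Col1a1 at 10.9 to 11.6 in fibroblasts. Arrays of 1 tissue correlated across probe sets at 0.974 to 0.993 in lungs and 0.986 to 0.993 in fibroblasts, and at 0.947 to 0.990 in hearts, where KO heart 1602 stood apart. Without KO heart 1602 the hearts correlated at 0.983 to 0.990, and the results in heart are also given without it. Averaged over its 4 probe sets, Myo1c was at 5.92 to 6.00 in KO hearts and 6.60 to 6.83 in WT hearts, 6.31 to 7.09 in KO lungs and 7.55 to 8.35 in WT lungs, and 6.24 and 6.26 in KO fibroblasts and 7.52 and 7.81 in WT fibroblasts. The groups did not overlap in any of the 3 tissues, although these probe sets do not tell NM1 from the other isoforms.

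Most of the matrix genes were highest in cultured skin fibroblasts. In WT samples, 34 of the 40 members were called between fibroblasts and heart, 30 of them higher in fibroblasts and 4 lower. Of all probe sets tested 63.8% were called, 36.2% higher and 27.7% lower. Between WT fibroblasts and WT lungs 31 were called, 27 higher and 4 lower, against 60.1% of probe sets, 31.7% higher and 28.4% lower. Between WT lungs and WT heart 25 of the 38 tested were called, 18 higher in lungs and 7 lower, against 60.2% of probe sets, 34.8% higher and 25.4% lower. The median member was 2.77 higher in fibroblasts than in heart and 2.02 higher than in lungs, while the medians over all probe sets tested were 0.16 and 0.05.

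Tnc, Lox and Timp1 showed the widest differences between WT fibroblasts and WT heart of the 40 members. Tnc, which encodes the matricellular protein tenascin C, averaged 11.28 ± 0.39 in WT fibroblasts (SD, n = 2), 4.38 ± 1.08 in WT lungs and 3.09 ± 0.12 in WT heart (SD, n = 3 each). It was 8.19 higher in fibroblasts than in heart (SE 0.461, adjusted p = 3.43e-09), a difference whose size is uncertain because the heart mean lay below the filter. Lox, which starts the cross-linking of collagen and elastin, averaged 12.88 ± 0.16 in WT fibroblasts, 6.78 ± 0.19 in WT lungs and 4.97 ± 0.29 in WT heart, and was 7.91 higher in fibroblasts than in heart (SE 0.313, adjusted p = 1.25e-10). Timp1, an inhibitor of matrix metalloproteinases, averaged 12.59 ± 0.05 in WT fibroblasts, 6.07 ± 0.23 in WT lungs and 5.56 ± 0.70 in WT heart. For these genes the fibroblast samples stood above every lung and heart sample of either genotype. The fibronectin gene Fn1, whose product carries the binding sites for integrins, collagen and heparin, averaged 13.31 ± 0.09 in WT fibroblasts, 9.56 ± 0.33 in WT lungs and 8.38 ± 0.59 in WT heart. Fn1 was called in each of these 3 pairs of tissues, although the call between lungs and heart was lost without WT heart 1624 (adjusted p = 0.0583).

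A minority of members were highest in an organ. A member was called highest in a tissue when it was called above both other tissues, and 26 members were highest in fibroblasts, 3 in lungs, 2 in heart and 9 in none. The 3 highest in lungs were the osteoglycin gene Ogn, the elastin gene Eln and Mfap4, a microfibril-associated glycoprotein that binds elastic fibres. Mfap4 averaged 6.20 ± 0.03 in WT fibroblasts, 10.78 ± 0.57 in WT lungs and 6.29 ± 1.03 in WT heart, and was 4.49 higher in lungs than in heart (SE 0.607, adjusted p = 2.27e-05), while fibroblasts and heart differed by less than their spread. Eln averaged 4.30 ± 0.38 in WT fibroblasts, 6.72 ± 0.16 in WT lungs and 5.80 ± 0.11 in WT heart, and the fibroblasts were 2.42 below the lungs (adjusted p = 8.43e-07) and 1.50 below the heart (adjusted p = 6.04e-05). Of the elastic fibre genes, Eln was the only member called lower in fibroblasts than in heart, and 8 of the other 10 were called higher.

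The 2 members highest in heart were Lum and Lama2. Lum, a corneal and connective tissue proteoglycan that spaces collagen fibrils, averaged 7.34 ± 0.79 in WT fibroblasts, 6.13 ± 0.60 in WT lungs and 10.25 ± 0.50 in WT heart, and was 4.12 lower in lungs than in heart (adjusted p = 1.41e-05). Lama2, the laminin chain of muscle basement membrane, averaged 6.60 ± 0.35 in WT fibroblasts, 7.10 ± 0.21 in WT lungs and 9.18 ± 0.30 in WT heart, and was 2.08 lower in lungs than in heart (adjusted p = 2.64e-06). The organs therefore differed by member: the versican gene Vcan and the thrombospondin gene Thbs2 were called lower in lungs than in heart, as was the fibulin gene Fbln1, whereas Mfap2, Ltbp2, Efemp1 and Fbln5 of the elastic fibre list were called higher in lungs. In KO samples the order of the 3 tissue means was the same as in WT samples for 34 of the 40 members, and differed for Fmod, Dcn, Mfap2, Mfap4, Lama2 and Nid1.

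**Figure D1:**
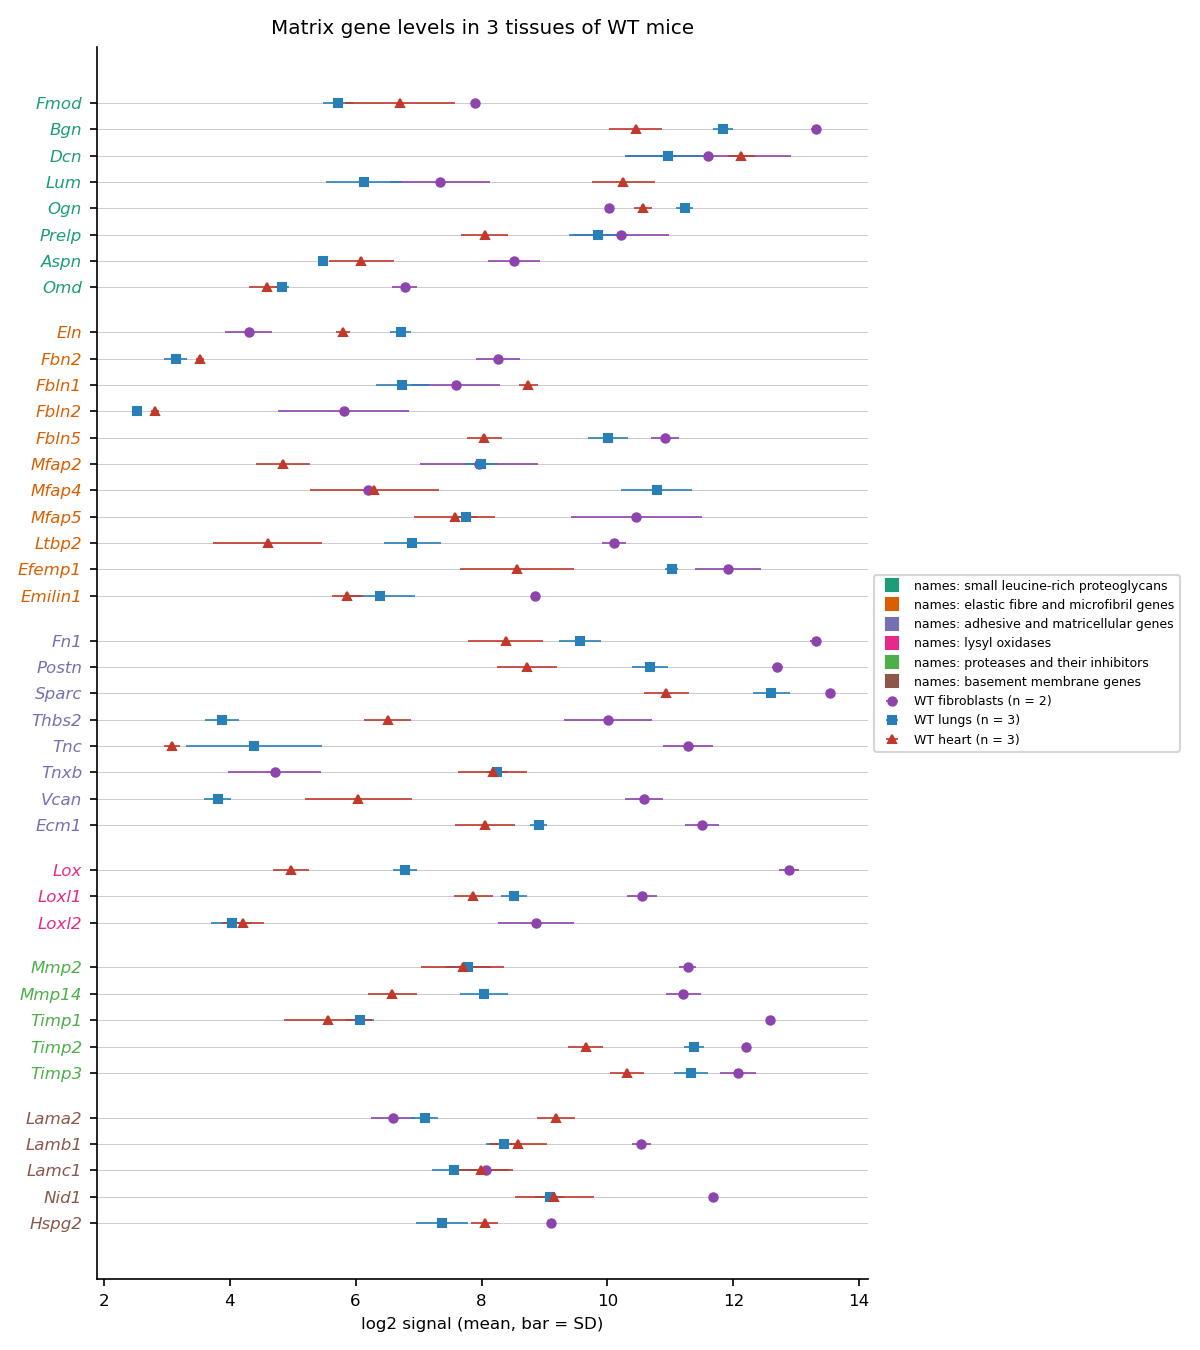
WT levels of the 40 members by role, as mean log2 signal ± SD in fibroblasts (n = 2), lungs (n = 3) and heart (n = 3). Most members are highest in fibroblasts, while Ogn, Eln and Mfap4 are highest in lungs and Lum and Lama2 in heart.

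In heart the comparison asked what loss of NM1 did to these genes. The members had lower values in KO hearts, but none passed the test in limma: 0 of the 37 members tested were called, where 0.127% of all 22098 probe sets were called. At an unadjusted p under 0.05, 23 of the 37 were lower and 0 higher, which is 62.2% of them lower, against 14.9% of all probe sets. At an unadjusted p under 0.01, 15 were lower, or 40.5% against 4.92%. Because the members were chosen with earlier results of these data known, these shares are a description and were not tested. In a fit of the hearts alone, 19 were lower at an unadjusted p under 0.05, or 51.4% against 8.64%. The difference was below 0 for 38 of the 40 measured members, and for 37 of 37 tested, against 72.2% of all probe sets tested. The median over the 40 measured members was -0.77, and over all probe sets tested -0.16. Groups did not overlap, with each KO heart below each WT heart, for 15 of the 37, or 40.5% against 13.7% of probe sets.

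By role, the median of the differences in heart over the measured members, those below the filter included, was -0.56 for 8 small leucine-rich proteoglycans, -0.97 for 11 elastic fibre genes, -0.97 for 8 adhesive genes, -0.63 for 3 lysyl oxidases, -0.93 for 5 proteases and inhibitors, and -0.28 for 5 basement membrane genes. At an unadjusted p under 0.05, 3 of 8, 6 of 9, 6 of 7, 2 of 3, 4 of 5 and 2 of 5 members tested were lower, in the same order, and 0 were higher.

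**Figure D2:**
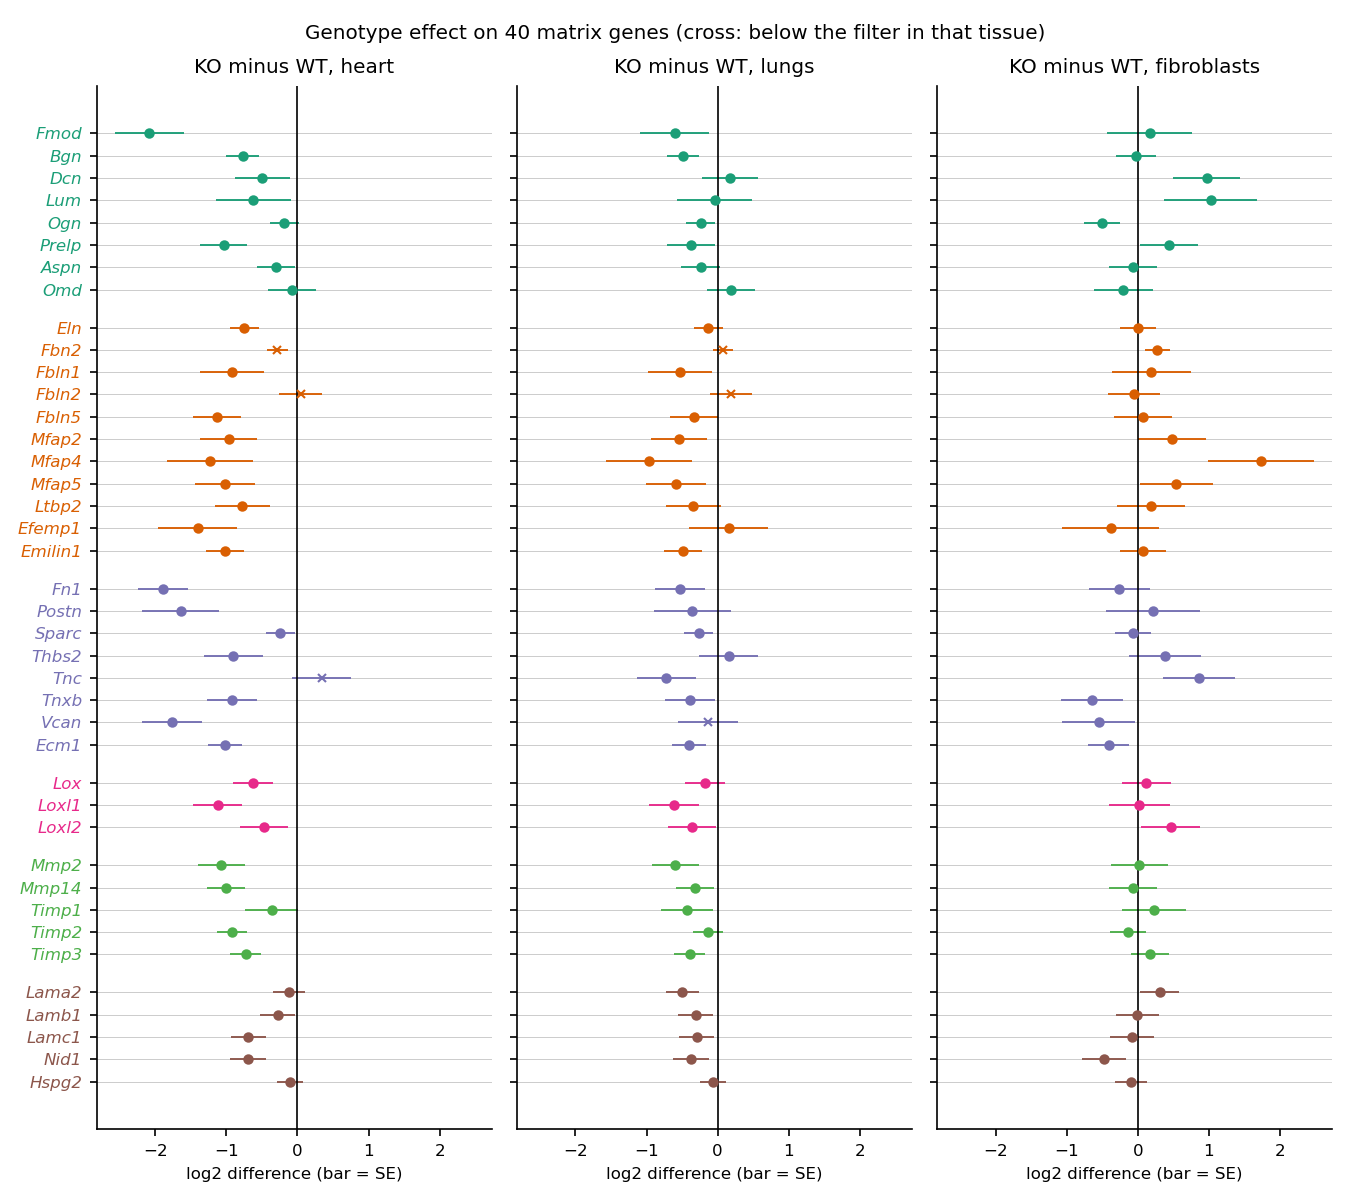
KO minus WT difference in log2 signal of each member in heart, lungs and fibroblasts, with its SE from limma; crosses mark members below the filter in that tissue. In heart 38 of 40 points lie below 0, in lungs 34 and in fibroblasts 17.

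Among the small leucine-rich proteoglycans, fibromodulin, biglycan and PRELP differed most in heart. Fmod, which encodes fibromodulin, a collagen-binding proteoglycan of tendon and other dense connective tissue, was at 4.07, 5.96 and 3.83 in KO hearts and at 7.64, 5.92 and 6.57 in WT hearts. KO hearts 1602 and 1586 were low, and KO heart 1603 overlapped with WT heart 1624. The means were 4.62 ± 1.17 in KO and 6.71 ± 0.87 in WT hearts (SD, n = 3 each), a difference of -2.09 (SE 0.485, adjusted p = 0.095), the largest of the 40 in size. Bgn, which encodes biglycan, was at 9.42, 10.15 and 9.45 in KO hearts and at 10.42, 10.04 and 10.88 in WT hearts, again with overlap from KO heart 1603 alone (difference -0.77, adjusted p = 0.151). Prelp, whose product links basement membrane to connective tissue, was at 6.90, 7.48 and 6.65 in KO hearts and at 7.76, 7.92 and 8.47 in WT hearts, with no overlap (difference -1.04, SE 0.336, adjusted p = 0.170). Another tested probe set of Prelp, at a lower signal, differed by -1.48 in heart, with an unadjusted p of 0.000109 in limma. The other 5 proteoglycans differed by less: the decorin gene Dcn by -0.50, Lum by -0.62, Ogn by -0.19, Aspn by -0.30 and Omd by -0.08.

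The promoters of the genes whose values carry the heart results are shown for those with an entry in the RefSeq table, which held 28 of the 40 measured members. Each sequence runs 5′ to 3′ on the gene's strand, from 250 bases before to 50 bases after the start, in GRCm38.p6. Capitals mark matches on either strand, and no match overlaps another in the windows shown. The TATA box was searched as TATAAA. The box bound by the factor Sp1 was searched as GGGCGG. The box bound by the factor NF-Y was searched as CCAAT. The site bound by the AP-1 factors was searched as TGANTCA, where N is any base. The site bound by the TEAD factors was searched as GGAATG. Fmod lies on the forward strand at chr1:134037004-134037303 and Vcan on the reverse strand at chr13:89742463-89742762. Ecm1 lies on the reverse strand at chr3:95739520-95739819 and Timp2 on the reverse strand at chr11:118355362-118355661.
Fmod: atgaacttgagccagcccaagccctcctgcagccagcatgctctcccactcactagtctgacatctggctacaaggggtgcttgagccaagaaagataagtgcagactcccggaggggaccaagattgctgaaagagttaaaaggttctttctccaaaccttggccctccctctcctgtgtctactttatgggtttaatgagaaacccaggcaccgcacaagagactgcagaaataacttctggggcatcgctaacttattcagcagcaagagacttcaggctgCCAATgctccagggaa
Vcan: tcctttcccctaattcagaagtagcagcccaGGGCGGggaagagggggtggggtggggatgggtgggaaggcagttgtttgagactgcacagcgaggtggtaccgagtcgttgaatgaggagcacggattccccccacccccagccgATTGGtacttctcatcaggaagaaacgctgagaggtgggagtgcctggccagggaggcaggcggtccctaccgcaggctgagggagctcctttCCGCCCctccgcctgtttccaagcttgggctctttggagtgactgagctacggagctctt
Ecm1: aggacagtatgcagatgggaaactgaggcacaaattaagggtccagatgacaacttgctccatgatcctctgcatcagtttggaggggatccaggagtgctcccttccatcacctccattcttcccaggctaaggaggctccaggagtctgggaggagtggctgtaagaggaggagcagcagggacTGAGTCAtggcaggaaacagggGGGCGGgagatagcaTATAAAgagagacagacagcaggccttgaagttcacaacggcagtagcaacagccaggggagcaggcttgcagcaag
Timp2: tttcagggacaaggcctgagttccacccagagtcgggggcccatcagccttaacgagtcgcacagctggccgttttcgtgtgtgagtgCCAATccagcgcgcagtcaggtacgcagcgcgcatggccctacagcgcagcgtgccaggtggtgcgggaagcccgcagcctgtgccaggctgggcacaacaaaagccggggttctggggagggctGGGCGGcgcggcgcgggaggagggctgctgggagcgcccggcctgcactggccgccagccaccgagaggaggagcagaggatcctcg
The Ecm1 window held 1 TATA box, 1 Sp1 box and 1 AP-1 match, the Vcan window 2 Sp1 boxes and 1 NF-Y match, the Timp2 window 1 of each of these 2 motifs, and the Fmod window 1 NF-Y match only. GC content was 51.0% for Fmod, 61.0% for Vcan, 54.7% for Ecm1 and 68.7% for Timp2. Over the 28 member promoters an Sp1 box was present in 17, or 60.7%, and in 35.9% of all 27025 promoters in the table. The TATA box was present in 17.9% and 14.2%, the NF-Y box in 46.4% and 37.9%, the AP-1 site in 10.7% and 7.93%, and the TEAD site in 10.7% and 14.6% of the member promoters and of all promoters. The median GC content was 55.3% and 52.7%. These matches are letters in a window and are not evidence of binding.

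Among the elastic fibre and microfibril genes, Emilin1 and Eln did not overlap between genotypes in heart. Emilin1, an elastic fibre glycoprotein of vessel walls, was at 4.76, 4.95 and 4.84 in KO hearts and at 5.64, 5.82 and 6.14 in WT hearts. The 3 KO hearts lay close together and well below the WT hearts (means 4.85 ± 0.09 and 5.87 ± 0.25, difference -1.02, SE 0.264, adjusted p = 0.115). Eln was at 4.83, 5.41 and 4.91 in KO hearts and at 5.75, 5.72 and 5.92 in WT hearts, with no overlap (difference -0.75, SE 0.204, adjusted p = 0.128). Fbln5, whose product fibulin 5 is needed to assemble elastic fibres, was at 6.18, 7.82 and 6.76 in KO hearts and at 7.91, 7.86 and 8.37 in WT hearts, where KO heart 1603 was only just below the lowest WT heart (difference -1.13, adjusted p = 0.151). Mfap4 was at 4.25, 6.73 and 4.20 in KO hearts and at 5.81, 5.60 and 7.47 in WT hearts, so that KO heart 1603 was above 2 of the 3 WT hearts (difference -1.23, SE 0.607, adjusted p = 0.319). Of the members not listed singly, Efemp1, the fibulin 3 gene, had the largest difference, with 5.88, 8.71 and 6.87 in KO hearts and 9.50, 7.70 and 8.47 in WT hearts (difference -1.40, adjusted p = 0.234). The microfibril genes Mfap2 and Mfap5 differed by -0.97 and -1.02, Fbln1 by -0.92 and Ltbp2 by -0.77, while Fbn2 and Fbln2 were below the filter in heart.

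With the probe set used for each gene, Fn1 had the smallest adjusted p of the members in heart. It was at 5.85, 7.43 and 6.21 in KO hearts and at 8.87, 7.72 and 8.56 in WT hearts, and the groups did not overlap, KO heart 1603 being the closest to the WT hearts. The means were 6.50 ± 0.83 in KO and 8.38 ± 0.59 in WT hearts, and the difference of -1.89 (SE 0.351) gave an adjusted p of 0.0652. Vcan, which encodes versican, a large proteoglycan of heart valves and the developing heart, was at 3.36, 5.07 and 4.42 in KO hearts and at 5.41, 5.72 and 7.00 in WT hearts, with no overlap (difference -1.76, SE 0.419, adjusted p = 0.101). Other tested probe sets of Vcan differed by less in heart, by -0.99 and -1.03. Postn, which encodes periostin, a matricellular protein of valves and activated fibroblasts, was at 5.87, 8.85 and 6.51 in KO hearts and at 8.65, 8.29 and 9.23 in WT hearts. KO heart 1603 was above 2 WT hearts, and the difference of -1.64 had an SE of 0.538 (adjusted p = 0.176). Ecm1, an extracellular glycoprotein that binds perlecan and fibulins, was at 6.86, 7.41 and 6.84 in KO hearts and at 8.35, 7.50 and 8.31 in WT hearts, with no overlap but a narrow gap (difference -1.02, SE 0.235, adjusted p = 0.095). Tnxb and Thbs2 differed by -0.92 and -0.90, and Sparc by -0.24, while Tnc was below the filter.

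The 3 lysyl oxidases were at low to moderate signals in heart. Lox was at 3.67, 4.71 and 4.66 in KO hearts and at 4.73, 5.29 and 4.88 in WT hearts, so that the groups only just failed to overlap (difference -0.63, adjusted p = 0.280). Another tested probe set of Lox differed in the opposite direction in heart, by 0.37, so that the direction of Lox there depended on the probe set. Loxl1, the lysyl oxidase most tied to elastic fibres, was at 6.38, 7.62 and 6.24 in KO hearts and at 7.73, 7.65 and 8.23 in WT hearts, with no overlap but a narrow gap (difference -1.12, SE 0.35, adjusted p = 0.162). Another tested probe set of Loxl1, at a lower signal, differed by only -0.10 in heart, so that the size of the difference depended on the probe set. Loxl2, which acts on basement membrane collagen, was at 3.29, 4.18 and 3.74 in KO hearts and at 4.02, 4.01 and 4.60 in WT hearts, with overlap (difference -0.47, adjusted p = 0.489).

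Both the proteases and their inhibitors were lower in value in KO hearts. Timp2, which inhibits matrix metalloproteinases and also helps to activate pro-MMP2 at the cell surface, was at 8.25, 9.21 and 8.74 in KO hearts and at 9.61, 9.40 and 9.95 in WT hearts, with no overlap (difference -0.93, SE 0.210, adjusted p = 0.0914). Mmp14, the membrane-bound protease that activates pro-MMP2, was at 5.09, 6.00 and 5.62 in KO hearts and at 6.18, 6.61 and 6.95 in WT hearts, with no overlap (difference -1.01, SE 0.272, adjusted p = 0.126), while another tested probe set of Mmp14, at a lower signal, differed by 0.094. Mmp2, the gelatinase that they act on, was at 6.21, 7.29 and 6.39 in KO hearts and at 7.07, 7.64 and 8.38 in WT hearts, where KO heart 1603 overlapped (difference -1.07, SE 0.328, adjusted p = 0.157). Timp3, a matrix-bound inhibitor, was at 9.34, 9.83 and 9.59 in KO hearts and at 10.02, 10.36 and 10.56 in WT hearts, with no overlap (difference -0.72, SE 0.217, adjusted p = 0.154). Timp1 overlapped and differed by -0.36 (adjusted p = 0.638).

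The basement membrane genes had the smallest differences of the 6 roles in heart. Nid1, whose product nidogen joins laminin to collagen IV, was at 8.59, 8.53 and 8.27 in KO hearts and at 8.44, 9.43 and 9.60 in WT hearts (difference -0.69, SE 0.253, adjusted p = 0.209). Lamc1, the laminin gamma 1 chain, was at 7.00, 7.48 and 7.44 in KO hearts and at 7.42, 8.31 and 8.26 in WT hearts (difference -0.69, SE 0.249, adjusted p = 0.203). Lamb1, the laminin beta 1 chain, was at 8.45, 8.45 and 8.01 in KO hearts and at 8.05, 8.87 and 8.83 in WT hearts (difference -0.28, adjusted p = 0.575). In all 3 genes it was WT heart 1592, not a KO heart, that made the groups overlap. Lama2 differed by -0.12 and the perlecan gene Hspg2 by -0.11.

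**Figure D3:**
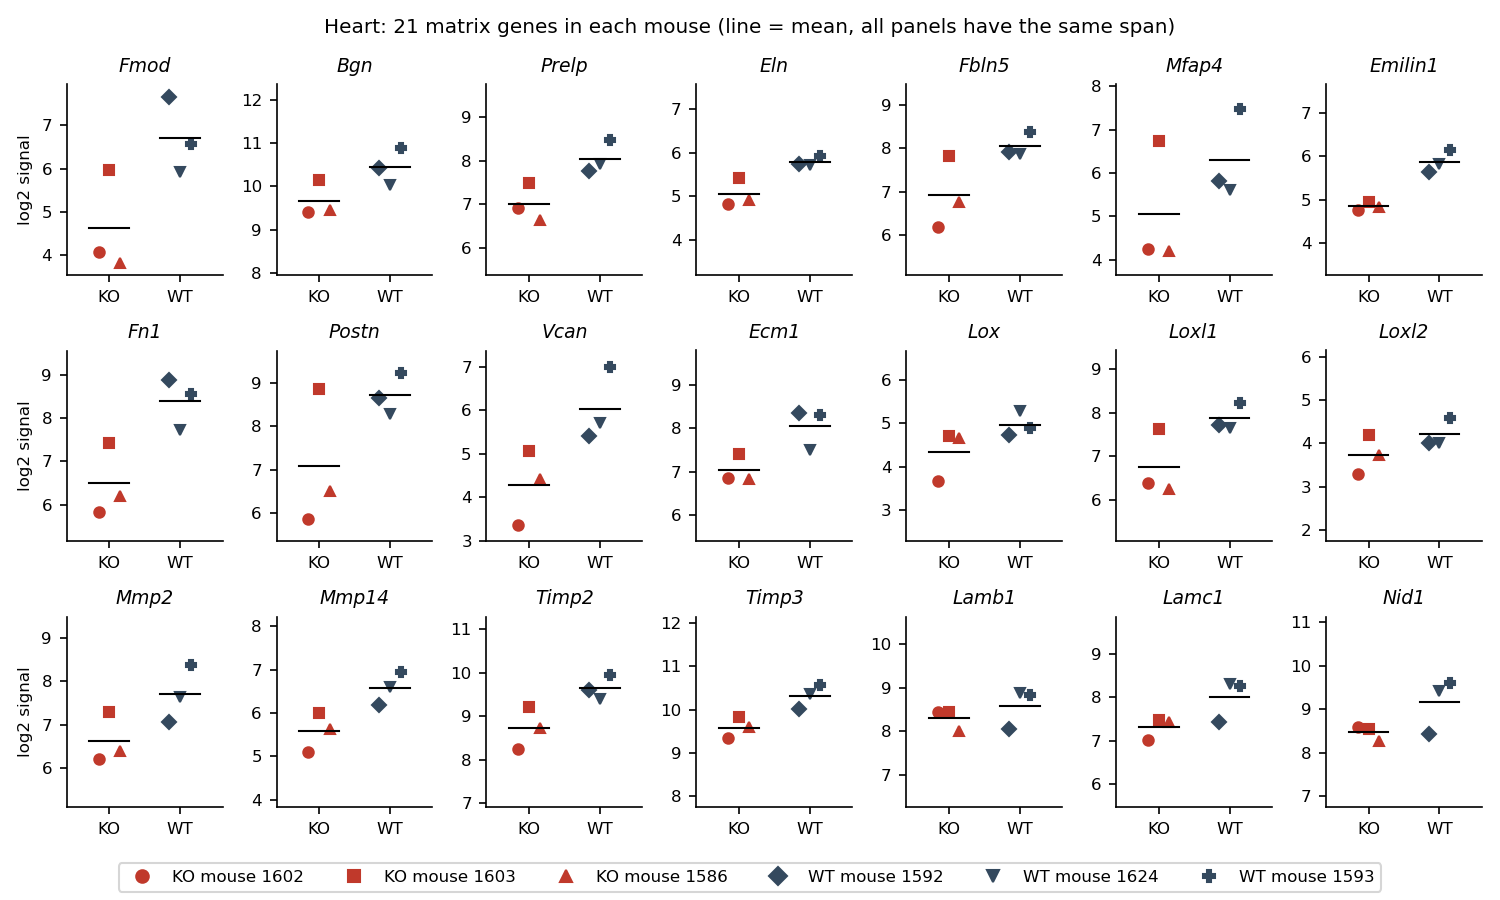
Log2 signal of the 21 members with values given singly, in each KO heart and each WT heart; the line is the group mean (n = 3 each). KO heart 1603 lies close to the WT hearts for Fmod, Mfap4 and Postn, whereas the 3 KO hearts are together for Emilin1.

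KO heart 1603 and the other 2 KO hearts differed in these genes. Of the 40 measured members, 16 were lower in each KO heart than in each WT heart, and 11 more were lower than every WT heart in KO hearts 1602 and 1586 but not in 1603. Those 11, or 29.7% of the 37 members tested against 13.4% of all probe sets, were Fmod, Bgn, Lum, Aspn, Mfap2, Mfap4, Mfap5, Efemp1, Postn, Loxl2 and Mmp2. KO heart 1603 was the highest KO heart for 29 of the 37 members tested, or 78.4%, against 44.6% of all probe sets. It was itself below every WT heart for 18, or 48.6%, against 28.8%. The median member was -0.31 from the WT mean in KO heart 1603 and -0.97 in the mean of KO hearts 1602 and 1586. For Postn these differences were 0.13 in KO heart 1603 and -2.53 in the other 2, for Efemp1 0.16 and -2.18, and for Mfap4 0.43 and -2.07. For Emilin1 they were -0.92 and -1.07, so that all 3 KO hearts were similarly far from WT.

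**Figure D4:**
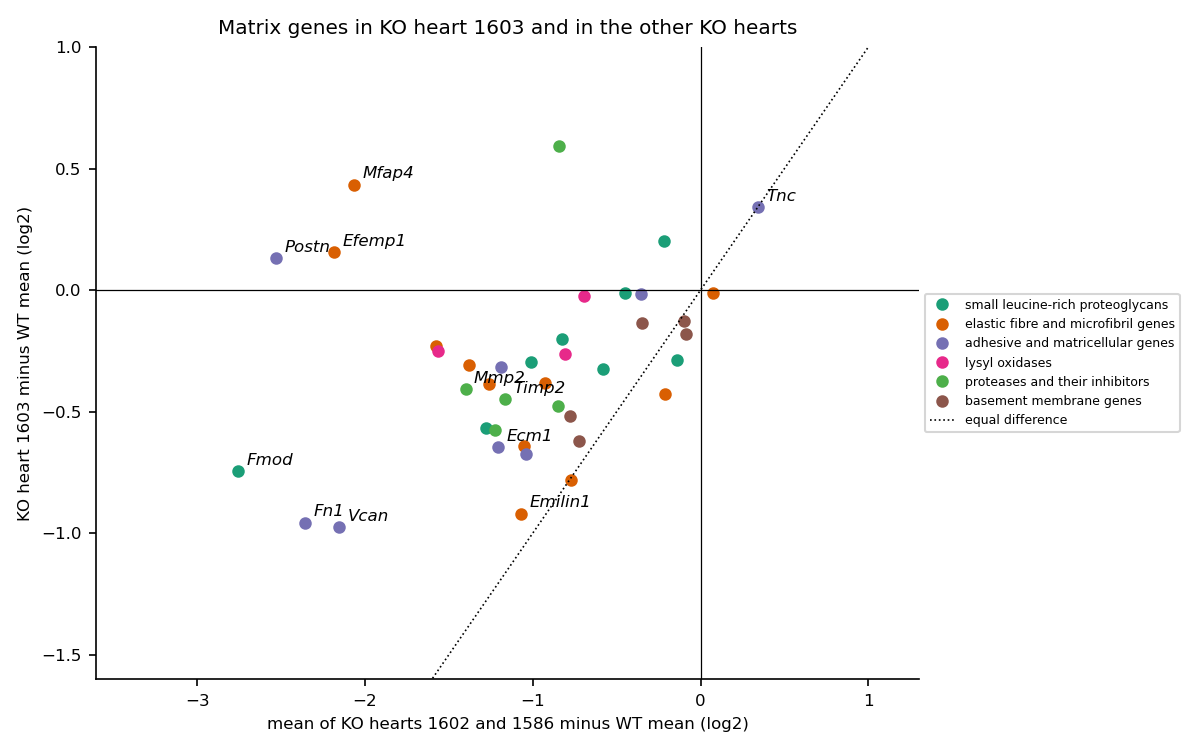
Each member's log2 difference from the WT heart mean in KO heart 1603 (vertical) against that in the mean of KO hearts 1602 and 1586 (horizontal), with a dotted line of equality. Most members lie above the line: Postn, Efemp1 and Mfap4 are near or above 0 in KO heart 1603, and Emilin1 is close to the line.

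Some marker lists of other cell types were lowest in the same KO hearts as the members, and others were not. Among KO hearts, the smooth muscle mean was highest in 1602, and the cardiomyocyte mean hardly varied. The mean of 7 atrial markers was 5.55, 9.51 and 6.21 in KO hearts and 9.83, 8.87 and 10.16 in WT hearts. The atrial myosin light chain Myl7 was at 4.08, 12.14 and 5.66 in KO hearts and at 12.44, 11.14 and 13.23 in WT hearts, and 5 to 7 of the 7 atrial markers were above the filter in each KO heart and 6 or 7 in each WT heart. The mean of 8 mesothelium markers was 3.96, 6.13 and 3.97 in KO hearts and 7.07, 5.38 and 5.39 in WT hearts, with 4 to 8 markers above the filter in KO hearts and all 8 in WT hearts. In both lists KO hearts 1602 and 1586 were far below the other hearts. The mean of 12 fibroblast markers was 6.07, 6.67 and 6.39 in KO hearts and 6.63, 6.84 and 7.29 in WT hearts, with 10 or 11 above the filter in each heart. It was 5.39, 5.20 and 4.96 in KO hearts and 6.11, 5.49 and 6.30 in WT hearts for 5 smooth muscle markers, and 7.56, 8.10 and 7.79 in KO hearts and 8.31, 8.20 and 8.09 in WT hearts for 7 endothelium markers. The 5 cardiomyocyte markers averaged 13.44 to 13.46 in KO hearts and 13.39 to 13.46 in WT hearts. The member mean was 6.26, 7.07 and 6.46 in KO hearts and 7.21, 7.23 and 7.70 in WT hearts, and no marker list shares a gene with the members. KO heart 1602 also had the lowest upper quartile of its signals, 5.63 against 6.17 to 6.31 in the other hearts.

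Fitted with the atrial mean as a term, the median of the members in heart was -0.29 with 32 of 40 lower and 0 called. In that fit 49.7% of all probe sets tested were lower. Of the members tested in it, 2 were lower at an unadjusted p under 0.05, or 5.41%, against 1.96% of all probe sets. Without KO hearts 1602 and 1586 the median of the members was -0.31, with 34 of 40 lower, where 53.5% of all probe sets tested were lower. That fit held a single KO heart, which was assumed to vary like the other groups. In these 2 fits Postn was 0.21 and 0.13 and Mfap4 0.58 and 0.43, above WT. Without KO heart 1603, 14 members were called lower: Fmod, Bgn, Eln, Fbln5, Mfap4, Efemp1, Fn1, Postn, Vcan, Ecm1, Loxl1, Mmp2, Mmp14 and Timp2, with adjusted p from 0.00376 for Postn to 0.0331 for Mmp14. They were 37.8% of the members tested, and in that fit 1054 probe sets, or 4.77%, were called in all. Without WT heart 1624, Fn1 and Ecm1 were called (adjusted p = 0.0359 and 0.0408). They were 5.41% of the members tested, against 0.181% of all probe sets in that fit. Without KO heart 1602 or KO heart 1586 alone, 0 members were called, and without KO heart 1602 the median was -0.62 with 16 members lower at an unadjusted p under 0.05, or 43.2% against 6.26% of all probe sets in that fit.

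**Figure D5:**
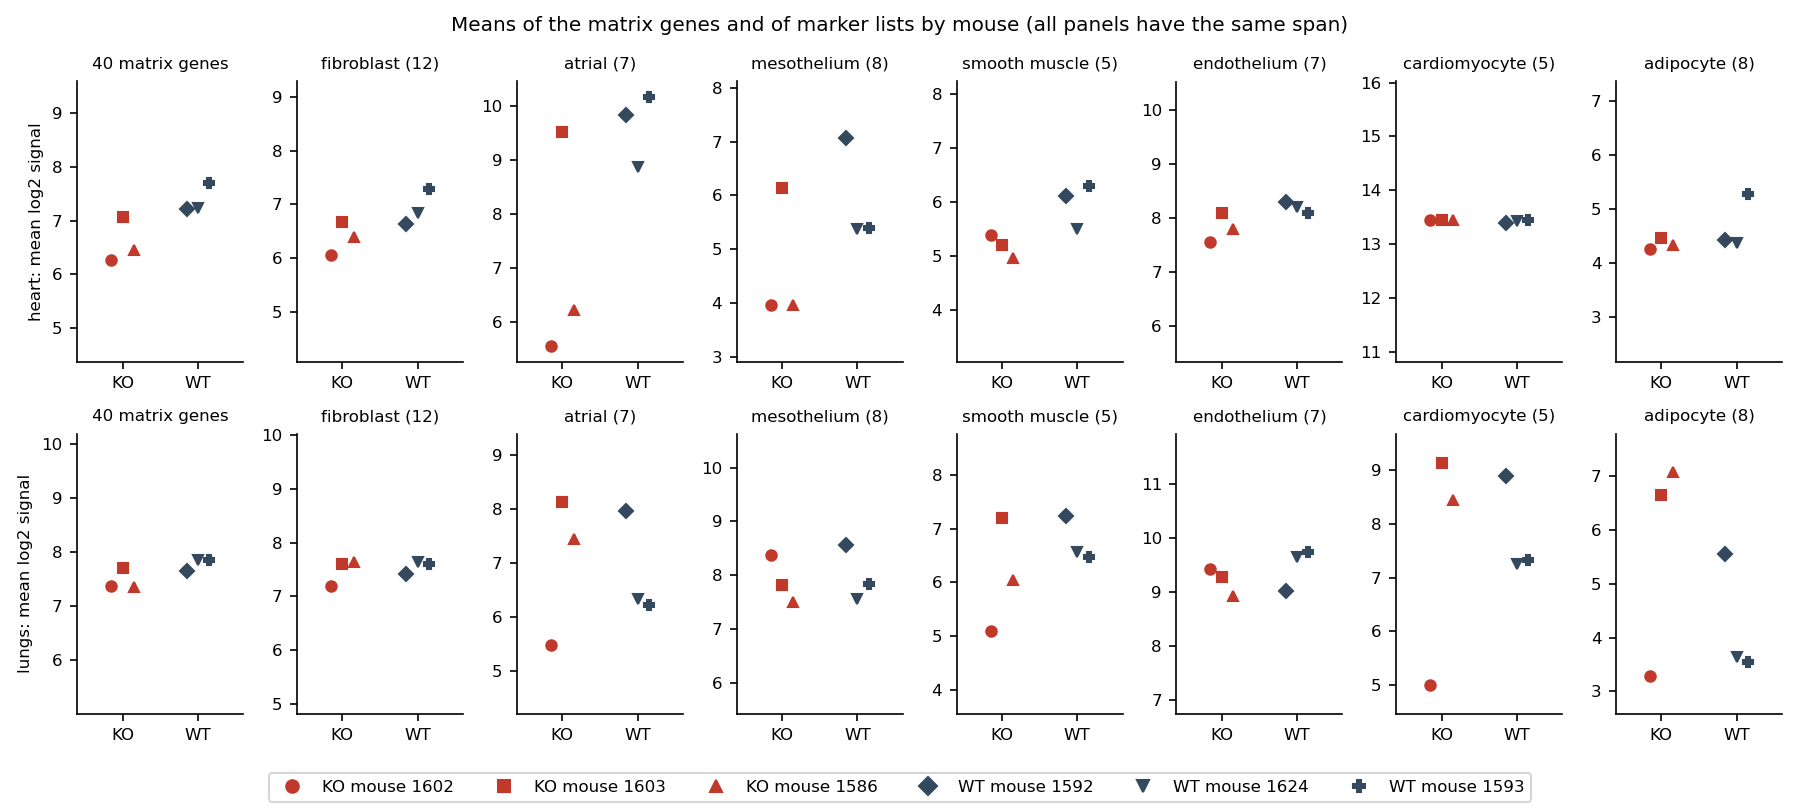
Mean log2 signal of the 40 members and of 7 marker lists in each mouse, in heart and in lungs, KO left of WT. The atrial and mesothelium means of KO hearts 1602 and 1586 lie far below those of the other hearts, and their member means are also the lowest (6.26 and 6.46).

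In lungs 0 of the 37 members tested were called, where 0.0301% of probe sets were called, and 1, Lama2, was lower at an unadjusted p under 0.05, or 2.7% against 3.66% of all probe sets. That last count depended on the fit. With lungs alone it was 8, or 21.6% against 4.24%. With each lung sample left out it ran from 0 without KO lungs 1586 (0% against 1.21%) to 6 without KO lungs 1603 (16.2% against 4.18%). The direction was nonetheless mostly downward: 34 of the 40 measured members were lower in KO lungs and 33 of the 37 tested, or 89.2% against 60% of probe sets. The median member was -0.35, against -0.06 over all probe sets tested. Each KO lung was below each WT lung for 8 of the 37 members, or 21.6% against 6.46%: Bgn, Ecm1, Mfap4, Fn1, Mfap5, Fmod, Timp1 and Ogn.

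Among the proteoglycans in lungs, Bgn was at 11.31, 11.64 and 11.08 in KO lungs and at 11.71, 11.76 and 12.01 in WT lungs, with no overlap (difference -0.49, adjusted p = 0.711). Fmod was at 4.78, 5.44 and 5.15 in KO lungs and at 5.96, 5.75 and 5.47 in WT lungs, where the highest KO lung was only just below the lowest WT lung (difference -0.60). Dcn, by contrast, was higher in value in KO lungs by 0.17. Mfap4 had the largest difference of the 40 in lungs, with 9.82, 10.18 and 9.46 in KO lungs and 10.35, 10.57 and 11.42 in WT lungs (difference -0.96, SE 0.607, adjusted p = 0.731). The elastin gene did not separate the groups: Eln was at 6.91, 6.54 and 6.30 in KO lungs and at 6.75, 6.86 and 6.54 in WT lungs.

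Of the adhesive genes in lungs, Fn1 was at 8.89, 9.18 and 9.01 in KO lungs and at 9.23, 9.56 and 9.89 in WT lungs, with no overlap (difference -0.53, adjusted p = 0.736). Ecm1 was at 8.53, 8.76 and 8.20 in KO lungs and at 8.80, 8.86 and 9.06 in WT lungs, with no overlap but a narrow gap (difference -0.41). Vcan was below the filter in lungs. Among the enzymes and inhibitors, Mmp2 was at 7.05, 7.53 and 6.99 in KO lungs and at 7.50, 8.21 and 7.64 in WT lungs, with overlap from KO lungs 1603 (difference -0.60). Loxl1 was at 8.04, 8.48 and 7.22 in KO lungs and at 8.30, 8.72 and 8.55 in WT lungs, also with overlap (difference -0.61). Another tested probe set of Loxl1 differed by -0.64 in lungs, with an unadjusted p of 0.00744 in limma. Timp2 was at 11.33, 11.28 and 11.10 in KO lungs and at 11.21, 11.36 and 11.54 in WT lungs, so that the groups overlapped. Of the basement membrane genes, Lama2 was at 6.30, 7.17 and 6.34 in KO lungs and at 6.85, 7.22 and 7.23 in WT lungs (difference -0.49, SE 0.225, adjusted p = 0.711). KO lungs 1603 lay among the WT lungs.

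The lung samples also differed in adipocyte and cardiomyocyte markers. The adipocyte marker mean was 3.29, 6.65 and 7.08 in KO lungs and 5.55, 3.63 and 3.54 in WT lungs, and the cardiomyocyte marker mean 5.01, 9.13 and 8.44 in KO lungs and 8.88, 7.26 and 7.32 in WT lungs. The atrial gene Myl7 was at 8.02, 12.04 and 11.37 in KO lungs and at 11.68, 10.15 and 9.84 in WT lungs. The ventricular gene Myl2 was at 3.19 to 4.14 in lungs. Lungs 1603 and 1586 of KO mice and lungs 1592 of WT mice were the highest in both the adipocyte and the cardiomyocyte list. Without these 3 samples, which left 1 KO lung and 2 WT lungs, the median member was -0.50, with 0 called, where 0.204% of probe sets were called. Of the members tested, 6 were lower at an unadjusted p under 0.05, or 16.2% against 2.84% of all probe sets in that fit, and the single KO lung was assumed to vary like the other groups. Eln and Loxl2 were then at 0.21 and 0.16, above WT. The smooth muscle marker mean was 5.09, 7.20 and 6.05 in KO lungs and 7.23, 6.57 and 6.46 in WT lungs, and 5 of 5 of these genes differed downward. The endothelium marker mean was 9.42, 9.27 and 8.93 in KO lungs and 9.01, 9.64 and 9.75 in WT lungs, and 7 of 7 differed downward. Genes of both lists differed in the direction of most members, as did 60% of all probe sets tested in lungs. The means of both lists overlapped between genotypes, and their part in the result was not tested. The member mean was 7.38, 7.71 and 7.35 in KO lungs and 7.66, 7.85 and 7.85 in WT lungs.

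In skin fibroblasts, which secrete many of these proteins, no shift of the members was seen. Of the 40 members 0 were called, where 0.0549% of probe sets were called, and 1, Mfap4, was at an unadjusted p under 0.05, or 2.5% against 3.33%. The difference was above 0 for 23, or 57.5% against 55.3% of probe sets, and below 0 for 17, with a median of 0.05, against 0.02 over all probe sets tested. Both KO cultures were below both WT cultures for 5 members, or 12.5% against 13% of probe sets: Fn1, Vcan, Ecm1, Nid1 and Hspg2. Both were above for 5, or 12.5% against 19.5%: Mfap4, Postn, Tnc, Timp1 and Lama2. With 2 cultures a group, such separation is common over the table.

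Mfap4 was at 8.22 and 7.66 in KO fibroblasts and at 6.18 and 6.22 in WT fibroblasts, a difference of 1.74 (SE 0.744, adjusted p = 1). Tnc was at 12.44 and 11.84 in KO fibroblasts and at 11.00 and 11.55 in WT fibroblasts. Another tested probe set of Tnc, at a lower signal, differed by 0.79 in fibroblasts, with an unadjusted p of 0.0016 in limma. Fn1 was at 13.05 and 13.04 in KO fibroblasts and at 13.24 and 13.37 in WT fibroblasts, a narrow gap at a high signal. Vcan was at 10.14 and 9.92 in KO fibroblasts and at 10.80 and 10.37 in WT fibroblasts, and Ecm1 at 11.24 and 10.95 in KO fibroblasts and at 11.31 and 11.69 in WT fibroblasts. Lox, at 12.96 and 13.05 in KO fibroblasts and at 13.00 and 12.77 in WT fibroblasts, and Timp2, at 12.21 and 11.91 in KO fibroblasts and at 12.21 and 12.19 in WT fibroblasts, overlapped. For Dcn the culture WT 1623 stood apart at 10.66, against 12.53 in the other WT culture and 12.62 and 12.49 in KO fibroblasts. WT 1623 was the lowest of the 4 cultures for 18 of the 40 members, or 45% against 32.5% of probe sets, and the highest for 4, or 10% against 23.3%.

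Whether the genotype difference itself varied between tissues was tested by interaction contrasts. Of 38 members tested between heart and lungs, 0 were called, as were 0% of all probe sets tested, where a probe set was tested if it passed the filter in either tissue. Of the 36 members above the filter in both, 3 were lower in heart at an unadjusted p under 0.05: Fmod by -1.48, Fn1 by -1.36 and Timp2 by -0.79, or 8.33% against 5.76% of such probe sets. Between heart and fibroblasts 0 of 40 were called against 0.0203% of probe sets, and 14 of the 37 above the filter in both were lower in heart at an unadjusted p under 0.05, or 37.8% against 6.14%. The largest of these in size was Mfap4, at -2.97 (SE 0.96, adjusted p = 0.508). Between fibroblasts and lungs 0 of 40 were called against 0.0197%, and 3 of the 37 above the filter in both were higher in fibroblasts at an unadjusted p under 0.05: Mfap4, Tnc and Lama2, or 8.11% against 2.42%. For Mfap4 and Timp1 every KO lung was below every WT lung and both KO cultures were above both WT cultures, which was 2 of 37 members tested in both, or 5.41% against 1.54% of probe sets. The difference was lower in value in heart than in lungs for 31 of the 36 members above the filter in both, or 86.1% against 64.5% of such probe sets, but no single member showed it beyond the spread after adjustment.

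With the lung and heart values of each mouse averaged, so that the mouse was the unit, 0 of 37 members were called, against 0.00857% of probe sets, and the smallest adjusted p was 0.297. At an unadjusted p under 0.05, 20 were lower, or 54.1% against 12.3%. Fn1 differed by -1.21 (SE 0.257), Fmod by -1.34, Ecm1 by -0.71, Mmp14 by -0.66 and Eln by -0.44. Fn1 and Ecm1 were the only members whose KO values lay below all WT values in both heart and lungs, 2 of the 36 tested in both, or 5.56% against 1.4% of probe sets.

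Genes next to these members in the same pathways were listed as well, and 0 of any list were called by limma in KO against WT in heart, lungs or fibroblasts. In heart the background was 72.2% of all probe sets tested lower in value and 14.9% lower at an unadjusted p under 0.05. TGF-beta is the growth factor that drives matrix production, and of its pathway 21 of 22 genes tested in heart were lower in value, or 95.5%, 14 of them at an unadjusted p under 0.05, or 63.6%. They included the signal carrier Smad3 at -0.57 (adjusted p = 0.101), the TGF-beta binding protein Ltbp3 at -0.92 (adjusted p = 0.104) and the inhibitor Smad7 at -1.02 (adjusted p = 0.122). Of the integrins and other matrix receptors, 13 of 18 were lower in heart, or 72.2%, the same share as over all probe sets, and 5, or 27.8%, were so at an unadjusted p under 0.05, among them the hyaluronan receptor Cd44 at -1.30 (adjusted p = 0.0835), Itga8 at -1.84 and Sdc2 at -0.61. Of the other matrix enzymes and inhibitors, 21 of 23 were lower, or 91.3%, 6 of them, or 26.1%, at an unadjusted p under 0.05 with 1 more higher at that p, with Reck, a membrane-bound protease inhibitor, at -1.32 (adjusted p = 0.0914), the collagen processing enhancer Pcolce at -0.61 and the collagenolytic cathepsin Ctsk at -0.93. Of the other non-collagen matrix genes, 18 of 20 were lower, or 90%, 9 of them, or 45%, at an unadjusted p under 0.05, with Comp at -1.89 (adjusted p = 0.086), the calcification inhibitor Mgp at -0.77 and Podn at -1.12.

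In lungs, 17 of 22 TGF-beta genes, 21 of 22 receptors, 20 of 26 enzymes and inhibitors and 15 of 21 other matrix genes were lower in value, which is 77.3%, 95.5%, 76.9% and 71.4% in that order, against 60% of all probe sets. In these lists 2, 1, 1 and 2 were lower at an unadjusted p under 0.05, or 9.09%, 4.55%, 3.85% and 9.52% against 3.66%, and 2 of the enzymes were higher. The smallest p among them belonged to the collagen hydroxylase gene Plod1, which was higher in value by 0.88 (adjusted p = 0.436). Other genes with the smallest p of their lists were Ltbp4 at -0.50, Smad6 at -0.78, Smad7 at -0.54, Sdc2 at -0.52, Dag1 at -0.31, Cd47 at -0.24, Plat at -0.77, Mmp9 at 0.61, Sparcl1 at -0.50, Mmrn2 at -0.48 and Lama3 at -0.61, with adjusted p from 0.711 to 0.73. In fibroblasts, 11 of 20, 9 of 17, 13 of 31 and 8 of 16 of these lists were lower in value, or 55%, 52.9%, 41.9% and 50% against 44.7% of all probe sets. At an unadjusted p under 0.05, 1 TGF-beta gene and 1 receptor were higher, 1 enzyme was lower and 0 other matrix genes passed, where 2.11% of all probe sets were higher and 1.22% lower. The collagen processing enhancer Pcolce2 was at -1.37 (adjusted p = 0.58) and the integrin Itgb5 at 0.51 (adjusted p = 0.942). The others with the smallest p there were Tgfb1 at 0.60, Tgfbi at 0.63, Eng at 0.58, Sdc4 at -0.55, Itga6 at -0.43, Plod2 at -0.67, Ctsk at 0.78, Matn2 at -0.85, Comp at -0.87 and Emilin2 at -0.74, each with an adjusted p of 1.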

How the data were processed

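The data were single-channel Affymetrix arrays of total RNA from NM1 KO and WT mice, 1 array a sample. The authors deposited log2 signals per probe set, and per the submitters' processing notes Partek 6.4 was used. How background was corrected and arrays were normalized is not stated in any source used here, and scanner files were not used, so the values were taken as deposited and not normalized again. Of 45141 probe sets, 104 control probe sets were set aside. Probe sets were named from the platform annotation with symbols updated by gene number for 28689 of them: 28898 named 1 gene, 551 several and 15588 none, and those naming several genes or none named no member. For a gene with several probe sets, the one with the highest mean over the 16 arrays was used. Of the other tested probe sets of the members, 24 of 26 in heart, 20 of 20 in lungs and 17 of 26 in fibroblasts had a difference of the same sign as the one used, the 2 exceptions in heart being those of Lox and Mmp14.

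Groups came from the sample titles. A model of 6 group means was fitted with limma 3.58.1 in R 4.3.3 over the 16 arrays (lmFit and eBayes, 10 residual and 3.53 prior degrees of freedom), two-sided. Probe sets with a mean above 3.79 in the tissues compared were tested, with Benjamini-Hochberg adjustment over them and a threshold of 0.05. Interaction contrasts used the same model, and the mean of lungs and heart per mouse used 3 KO and 3 WT mice. The fit was tested on simulated data. The members, gene lists and marker lists were chosen with earlier results of these data known. Values in each sample are given for the 3 members of each role with the smallest p in heart, and for any member with an unadjusted p under 0.01 in a KO against WT comparison or an interaction. Others are named after their values were seen, and 3 genes of each further list are named by the same ranking in each tissue.

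Lungs and heart of a KO or WT mouse carry the same mouse number, and KO and WT mice share none. The deviations of a mouse's lungs from their group mean correlated with those of its own heart at 0.0404 to 0.169, and its own heart was the best match in 4 of 6 mice. The number marks the same animal, and the fit with the mouse as a random block (consensus correlation 0.0542) was an alternative. The other alternatives were a stricter filter and none, quantile normalization, an intensity trend in the prior, a fit of 1 tissue alone, each sample left out in turn, an atrial term and fits without the samples that stood apart. On arrays the number of samples and the signal over background limit the precision.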

Additional observations from a re-analysis of the deposited data

Results flagged for a closer look

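For Mfap4 and Timp1 the genotypes separated in opposite directions in lungs and in fibroblasts: every KO lung was below every WT lung, and both KO fibroblast cultures were above both WT cultures. Mfap4 differed by -0.96 in lungs and by 1.74 in fibroblasts, and Timp1 by -0.43 in lungs and by 0.22 in fibroblasts. The difference between the tissues was tested by the interaction contrast, which was 2.70 for Mfap4 (SE 0.96) and 0.66 for Timp1 (SE 0.58) for fibroblasts minus lungs, with an adjusted p of 0.987 for each in limma. Such opposite separation was seen in 2 of 37 members, or 5.41%, against 1.54% of all probe sets tested in both tissues.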

How the results depend on the processing

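Members were called in KO against WT only in heart: 0 as reported, 1 (Fn1) with an intensity trend, 0 to 14 with each heart left out in turn (14 without KO heart 1603), and 0 under the other alternatives. The heart median of -0.77 was -0.29 with the atrial term, -0.31 without KO hearts 1602 and 1586, and -0.97 to -0.62 with each heart left out. Under quantile normalization it was -0.70 with 36 of 40 lower, where 52.7% of all probe sets tested were lower. The median of all probe sets tested moved from -0.16 to -0.02, and Omd and Hspg2 were then above WT at 0.12 and 0.01. In lungs and fibroblasts 0 members were called under any alternative, and the medians with each sample left out were -0.46 to -0.24 and -0.11 to 0.12. Between heart and fibroblasts 0 to 1 was called (Postn, -2.74, adjusted p = 0.0473, without KO heart 1603). With the mouse as a random block, the replicate block, 0 members were called in KO against WT, and 34, 31 and 25 in the WT tissue pairs, as without it. With each sample left out those numbers were 34 to 36, 30 to 31 and 23 to 27. Counts over all probe sets moved more: in heart 28 as reported, 10 with no filter, 2 with heart alone, with the atrial term or without KO hearts 1602 and 1586, and 3 to 1054 with each heart left out; in lungs 7 as reported, 4 with no filter, 11 with the trend, 1 with lungs alone, 47 without the 3 lungs that stood apart, and 0 to 62. In fibroblasts it was 12 as reported, 5 with the stricter filter, 0 with fibroblasts alone and 12 to 92, and for the mouse mean 2 as reported, 4 with the trend and 2 to 5. Of 777 recomputed differences of the named members, 748 kept their sign and 16 gained a call, all in heart. The 748 include alternatives in which no sign could turn. The filters, the intensity trend and the fit of 1 tissue alone leave a difference unchanged and alter only its p. Signs turned in heart with the atrial term for Loxl2 (0.064), Mfap4 (0.58) and Postn (0.21), and without KO hearts 1602 and 1586 for Mfap4 (0.43) and Postn (0.13). They turned in lungs without the 3 that stood apart for Eln (0.21) and Loxl2 (0.16), and in fibroblasts under quantile normalization for Bgn (0.075) and Eln (-0.022). With each sample left out, the lungs range was -0.30 to 0.0069 for Eln and -0.26 to 0.086 for Vcan. In fibroblasts it was -0.094 to 0.041 for Bgn, -0.26 to 0.27 for Eln, -0.13 to 0.27 for Emilin1, -0.082 to 0.23 for Fbln5, -0.11 to 0.10 for Lamb1, -0.33 to 0.17 for Lamc1, -0.15 to 0.19 for Loxl1, -0.27 to 0.13 for Mmp14, -0.089 to 0.14 for Mmp2, -0.11 to 0.98 for Prelp, -0.29 to 0.011 for Timp2 and -0.035 to 0.37 for Timp3. The cause of these changes was not tested. Members near the filter, such as Tnc in heart and Vcan in lungs, sit close to background, which limits the size of their differences.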
